A study of Mus musculus with 6 samples.

Results

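Enzymes that supply NADPH and run the pentose phosphate pathway were examined in injured mouse kidneys with and without nanoparticle treatment. The set holds 10 genes, taken by symbol: G6pdx, Pgls and Pgd of the oxidative branch, Rpia, Rpe, Tkt and Taldo1 of the non-oxidative branch, and H6pd, Me1 and Nnt, which supply NADPH elsewhere. These symbols matched 11 of the 25031 rows of the count table, because Nnt stands on 2 rows, and all 11 rows passed the filter on low counts. One group of kidneys came from mice given (+)CePPy, positively charged polypyrrole nanoparticles doped with cerium, at 5 mg/kg by vein directly after the injury (CePPy, 3 libraries). The other group came from mice given saline in equal volume (vehicle, 3 libraries). All animals of both groups were wild-type male C57BL/6 mice of 7 to 8 weeks, and all underwent 23 minutes of bilateral renal ischemia at a core temperature of 37 °C before reperfusion. Uninjured kidneys were not analysed here, and no source used here gives the time from injury to collection.

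NADPH is the reductant that cells spend to regenerate glutathione and thioredoxin and to build fatty acids and sterols. In the cytosol the oxidative branch of the pentose phosphate pathway makes it by oxidising glucose 6-phosphate to ribulose 5-phosphate, and the non-oxidative branch shuttles the resulting pentose phosphates back into glycolysis or on to nucleotide synthesis. Several genes of both branches are known targets of NRF2, a transcription factor activated by oxidative stress that binds, with a small MAF protein, to DNA sites called antioxidant response elements.

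Total counts per library lay between 29762157 and 37415213, and 1 count equalled 0.0266 to 0.0333 CPM, the usual depth-normalized count unit, after scaling of the libraries by the TMM method. The defining markers of kidney were abundant: the endocytic receptor gene Lrp2 averaged 912 ± 378 CPM in CePPy and 614 ± 30.8 CPM in vehicle, and Umod averaged 4128 ± 1144 CPM in CePPy and 2596 ± 185 CPM in vehicle (SD, n = 3 each). No label says that the libraries of a group came from separate animals, so a p-value here reflects only how far these libraries differ from each other, and that spread may be technical. In bulk tissue, fewer cells of a type and less RNA per cell cannot be told apart.

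Shown for each of G6pdx, Me1 and Pgd is a window that holds the core of the antioxidant response element, TGACNNNGC, searched on both strands. For Taldo1, the member with the lowest p, the window shown lacks it, and sequence outside the windows was not searched. RefSeq windows (GRCm38.p6) of 300 bases, 250 before and 50 after an annotated start, were found for 9 of the 10 symbols, with 2 starts each for Pgd and Me1. Each sequence below runs 5′ to 3′ on the strand of its gene, from 250 bases before the start to 30 bases after it, and capitals mark the match.
G6pdx, chrX:74428851-74429130, minus strand: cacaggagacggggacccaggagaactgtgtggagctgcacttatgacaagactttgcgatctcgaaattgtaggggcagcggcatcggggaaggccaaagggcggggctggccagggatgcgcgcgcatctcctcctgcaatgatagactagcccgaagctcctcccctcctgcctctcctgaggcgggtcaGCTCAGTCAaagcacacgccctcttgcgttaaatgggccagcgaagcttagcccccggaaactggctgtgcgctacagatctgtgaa
Me1, chr9:86695885-86696164, minus strand: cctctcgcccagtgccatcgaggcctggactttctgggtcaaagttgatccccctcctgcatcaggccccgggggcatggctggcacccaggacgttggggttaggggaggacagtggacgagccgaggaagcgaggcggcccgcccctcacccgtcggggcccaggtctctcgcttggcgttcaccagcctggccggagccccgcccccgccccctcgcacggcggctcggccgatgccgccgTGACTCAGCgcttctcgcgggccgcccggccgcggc
Pgd, chr4:149166053-149166332, minus strand: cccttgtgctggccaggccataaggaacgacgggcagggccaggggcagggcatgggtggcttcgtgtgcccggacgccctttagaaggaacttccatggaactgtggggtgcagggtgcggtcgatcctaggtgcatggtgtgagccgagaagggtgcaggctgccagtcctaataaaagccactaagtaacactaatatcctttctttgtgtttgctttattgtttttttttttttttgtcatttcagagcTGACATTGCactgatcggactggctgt
Taldo1, chr7:141391910-141392189, plus strand: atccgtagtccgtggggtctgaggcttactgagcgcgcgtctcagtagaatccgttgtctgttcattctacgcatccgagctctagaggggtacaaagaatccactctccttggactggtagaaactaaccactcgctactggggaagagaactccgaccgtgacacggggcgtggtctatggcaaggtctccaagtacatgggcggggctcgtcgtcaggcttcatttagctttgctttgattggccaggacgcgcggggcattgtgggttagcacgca

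Over the full 300-base windows the motif stood in 3 of the 11 windows of the members (27.27%), against 4071 of all 32851 windows (12.39%). The G6pdx match lies on the strand opposite to the gene, so the capitals read GCTCAGTCA, the reverse complement of TGACTGAGC. It begins 57 bases before the start, while the Me1 match spans the start and the Pgd match begins just after the second, downstream annotated start of that gene. That Pgd window lies inside the gene as annotated, and so do the windows of G6pdx, Tkt and H6pd and the downstream Me1 window. For H6pd the only window stops at 150003486, short of the annotated 5′ end at 150009023, which was not searched. The window of the upstream Pgd start held no match. The downstream Me1 window held none either. The Me1 match TGACTCAGC also contains TGACTCA, an AP-1 site, so these letters match the sites of both factor families. A match describes letters, and its occupancy was not measured.

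Against this background, the comparison of CePPy with vehicle asks whether transcripts for making NADPH differed in the treated injured kidney. G6pdx, Pgd, Taldo1 and Tkt had lower values in each of the 3 CePPy libraries than in any vehicle library, at 0.60 to 0.76 of the vehicle level. Pgls was lower by less, Rpia and Rpe overlapped between groups, and Me1 and the summed Nnt rows had higher means in CePPy with overlapping groups. With the quasi-likelihood test of edgeR and Benjamini-Hochberg adjustment over all 15416 genes tested, 0 of the 11 rows were called at an adjusted p under 0.05. In that test 1 gene was called over the whole table, or 0.00649% of those tested, a lower locus that the table lists without a gene name. By DESeq2 on the same genes, 4 of the 10 rows that got an adjusted p were called, all lower (G6pdx, Pgd, Tkt and Taldo1), where 3.43% of all genes with an adjusted p were called lower, 3.64% higher and 7.07% in either direction. The same 4 were called lower by edgeR without CePPy 2, where 2.19% of genes were called lower, 2.98% higher and 5.17% in either direction. Taldo1, G6pdx and Pgd were called by limma-voom with sample weights, where 1.32% of genes were called lower, 0.960% higher and 2.28% in either direction. At an unadjusted edgeR p under 0.05, 4 rows were lower and 0 higher, against 9.37% of all genes tested lower, 9.65% higher and 19.0% in either direction.

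The members' rows had a median log2 fold change of -0.31, and all genes tested had 0.003. That median was -0.17 without CePPy 1 and -0.19 without CePPy 2. Leaving out CePPy 2 made G6pdx (-0.89), Pgd (-0.88), Taldo1 (-0.62), Tkt (-0.47) and H6pd (-0.45) more negative, and Me1 rose to 0.32. The Nnt row ENSMUSG00000025453 moved from -0.62 to -0.12 in that fit, and the middle row changed from H6pd to Rpia. The oxidative branch had a median of -0.72 over its 3 genes and the non-oxidative branch -0.27 over its 4 genes. The groups did not overlap for 5 of the 11 rows, each lower in CePPy, against 14.0% of all genes tested that were apart and lower and 12.3% that were apart and higher.

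**Figure D1:**
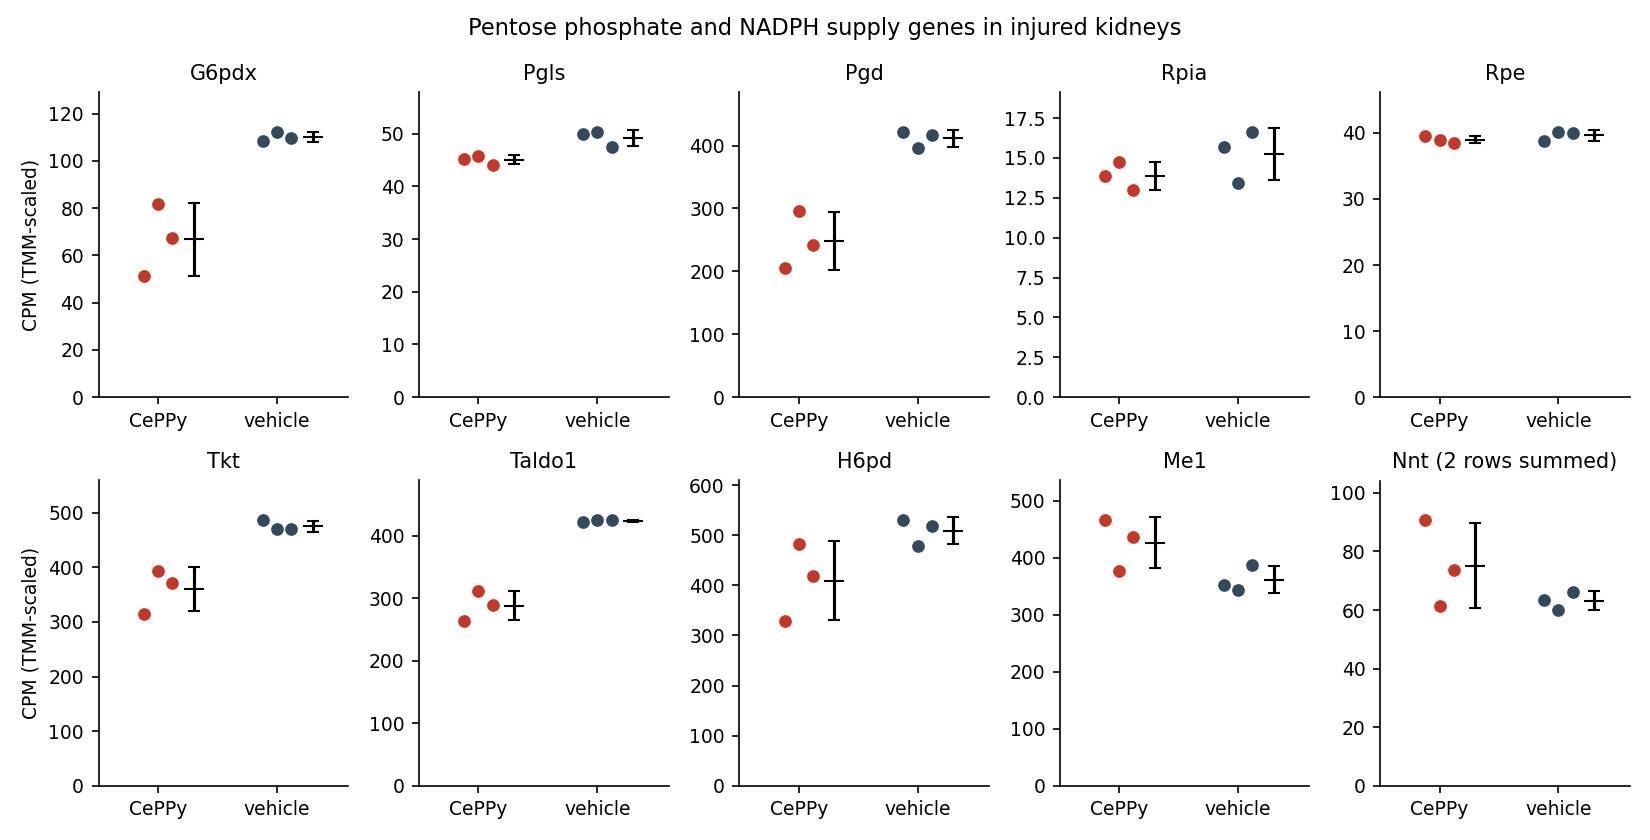
Level of each member in CPM on TMM-scaled libraries (y axis, from 0) in the 3 CePPy and 3 vehicle libraries (points, replicates 1 to 3 from left to right), with the mean and SD beside each group. G6pdx, Pgd, Tkt and Taldo1 show CePPy points between 51.1 and 394 CPM that all lie under their vehicle points, while Rpe sits near 39 CPM in both groups.

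The oxidative branch begins with G6pdx, glucose-6-phosphate dehydrogenase, the rate-setting enzyme that makes the first NADPH (ENSMUSG00000031400, chromosome X, 74409483 to 74429194, minus strand, GRCm38). G6pdx measured 51.1, 81.7 and 67.4 CPM in CePPy 1, 2 and 3, against 108, 112 and 109.5 CPM in vehicle 1, 2 and 3. Vehicle libraries lay close together, whereas the CePPy libraries spread widely below them, with CePPy 1 lowest and CePPy 2 highest. The log2 fold change was -0.72 (SE 0.15, edgeR adjusted p = 0.103), or 0.607 of vehicle. DESeq2 called it lower (log2 fold change -0.72, adjusted p = 0.00102), and so did edgeR without CePPy 2 (-0.89, adjusted p = 0.0174). The exons of G6pdx share 418 bases, 13.57% of its exon length, with Ikbkg on the other strand. Ikbkg measured 42.9 ± 2.89 CPM in CePPy and 53.5 ± 3.43 CPM in vehicle (SD, n = 3 each), and without a stated strand setting reads in the shared stretch cannot be told apart. The retrogene G6pd2, a near copy on chromosome 5, was counted only in CePPy 2, with 2 reads.

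Pgd, 6-phosphogluconate dehydrogenase, makes the second NADPH and releases ribulose 5-phosphate (ENSMUSG00000028961, chromosome 4, 149149991 to 149166771, minus strand). Pgd measured 205, 296 and 242 CPM in CePPy 1, 2 and 3, against 422, 397 and 417 CPM in vehicle 1, 2 and 3. As for G6pdx, CePPy 1 was lowest, CePPy 2 highest, and no library crossed to the other group. Its log2 fold change at -0.73 (SE 0.13, edgeR adjusted p = 0.0884; DESeq2 adjusted p = 4.41e-05) was the most negative of the set, and 2.69% of the genes tested had a more negative one.

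Within a library, Pgd and G6pdx kept nearly the same proportion. The log2 ratio of their raw counts, a value that does not depend on scaling, was 2.00, 1.86 and 1.85 in CePPy 1, 2 and 3 and 1.96, 1.82 and 1.93 in vehicle 1, 2 and 3, a difference of means of -0.0006.

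Between these 2 dehydrogenases acts Pgls, the lactonase that opens 6-phosphogluconolactone (ENSMUSG00000031807, chromosome 8, 71592176 to 71601092, plus strand). Pgls measured 45.2, 45.8 and 44.1 CPM in CePPy 1, 2 and 3, against 49.9, 50.3 and 47.5 CPM in vehicle 1, 2 and 3. The groups were apart, but by a narrow gap, with a log2 fold change at -0.13 (SE 0.07, edgeR adjusted p = 0.355). The log2 count ratio of Pgd to Pgls was accordingly 2.44 on average in CePPy and 3.06 in vehicle, a difference of -0.62. Pgls shares 20.58% of its exon length with Fam129c on the same strand, a gene that averaged 0.537 CPM in CePPy and 0.343 CPM in vehicle.

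In the non-oxidative branch, Taldo1, transaldolase, moves carbon units between sugar phosphates (ENSMUSG00000025503, chromosome 7, 141392199 to 141402968, plus strand). The Taldo1 level was 264, 311 and 289 CPM in CePPy 1, 2 and 3, against 422, 425 and 424 CPM in vehicle 1, 2 and 3. The vehicle values had the smallest SD of any member relative to the mean, and every CePPy library lay well below them. The log2 fold change was -0.56 (SE 0.09, edgeR adjusted p = 0.0813; DESeq2 adjusted p = 9.49e-07). Tkt, transketolase, the thiamine-dependent partner of transaldolase (ENSMUSG00000021957, chromosome 14, 30548359 to 30574720, plus strand), measured 315, 394 and 371 CPM in CePPy 1, 2 and 3, against 486, 470 and 469.5 CPM in vehicle 1, 2 and 3. The CePPy libraries followed the same order for Tkt, and the groups were again without overlap. The log2 difference was -0.40 (SE 0.10, edgeR adjusted p = 0.124, DESeq2 adjusted p = 0.00832). The log2 count ratio of Tkt to Taldo1 was 0.26, 0.34 and 0.36 in CePPy 1, 2 and 3, above the 0.20, 0.15 and 0.15 of vehicle 1, 2 and 3, so this ratio was higher in each CePPy library than in any vehicle library.

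The enzymes that interconvert the pentose phosphates had overlapping groups, and the log2 fold change of Rpia, -0.14, was near that of Pgls, -0.13. Rpia, the isomerase that makes ribose 5-phosphate (ENSMUSG00000053604, chromosome 6, 70765720 to 70792232, minus strand), measured 13.8, 14.7 and 13.0 CPM in CePPy 1, 2 and 3, against 15.7, 13.4 and 16.6 CPM in vehicle 1, 2 and 3. Its groups overlapped through vehicle 2, and the log2 fold change of -0.14 (SE 0.12) did not pass (edgeR adjusted p = 0.561). Rpe, the epimerase that makes xylulose 5-phosphate (ENSMUSG00000026005, chromosome 1, 66700831 to 66719805, plus strand), measured 39.5, 38.9 and 38.5 CPM in CePPy 1, 2 and 3, against 38.7, 40.2 and 40.0 CPM in vehicle 1, 2 and 3. The 6 Rpe values lay close together and overlapped between groups, with a log2 fold change at -0.02 (SE 0.07, edgeR adjusted p = 0.88). Rpe shares 17.92% of its exon length with Kansl1l on the other strand, which measured 69.2 ± 1.76 CPM in CePPy and 51.5 ± 5.07 CPM in vehicle (SD, n = 3 each), so part of the Rpe count could belong to Kansl1l. The log2 count ratio of Taldo1 to Rpe averaged 2.88 in CePPy and 3.42 in vehicle.

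**Figure D2:**
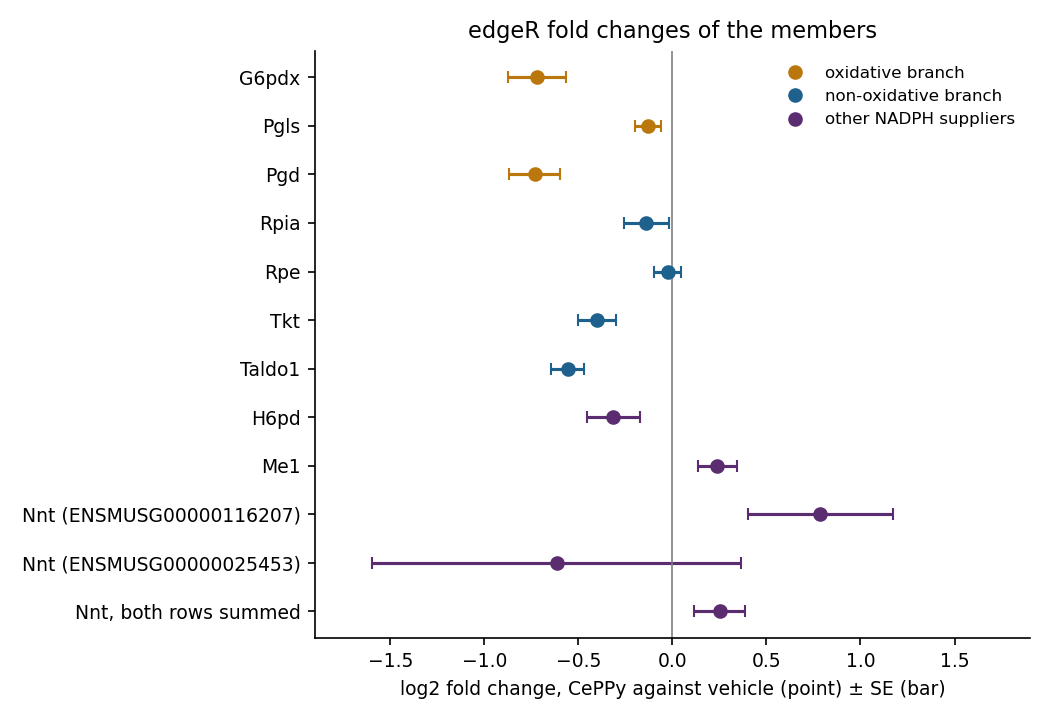
Log2 fold change of CePPy against vehicle by edgeR (x axis) for each of the 11 rows and for both Nnt rows summed, with bars of 1 SE, coloured by role. G6pdx, Pgd and Taldo1 lie between -0.73 and -0.56, Rpe at -0.02 and Me1 at 0.24, and the single Nnt rows point in opposite directions.

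Among the suppliers outside the cytosolic pathway, H6pd works in the endoplasmic reticulum, where it carries out the first steps of the oxidative branch in 1 protein and feeds NADPH to the steroid-activating enzyme HSD11B1 (ENSMUSG00000028980, chromosome 4, 149979475 to 150009023, minus strand). H6pd measured 328, 483 and 418 CPM in CePPy 1, 2 and 3, against 530, 479 and 518 CPM in vehicle 1, 2 and 3. CePPy 2 lay just above vehicle 2, so the groups overlapped, and the log2 fold change of -0.31 (SE 0.14) did not pass (edgeR adjusted p = 0.279; DESeq2 adjusted p = 0.2). The fold change was -0.17 without CePPy 1 and -0.45 without CePPy 2. The log2 count ratio of G6pdx to H6pd was -2.68, -2.57 and -2.63 in CePPy 1, 2 and 3 and -2.29, -2.09 and -2.24 in vehicle 1, 2 and 3.

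Me1, the cytosolic malic enzyme that makes NADPH while turning malate into pyruvate, differed from the pathway genes in the sign of its fold change (ENSMUSG00000032418, chromosome 9, 86581371 to 86695953, minus strand). Me1 measured 466, 377 and 437 CPM in CePPy 1, 2 and 3, against 352, 344 and 388 CPM in vehicle 1, 2 and 3. The CePPy libraries ran in the reverse of their G6pdx order, with CePPy 1 highest, and CePPy 2 lay under vehicle 3. Me1 did not pass (log2 fold change 0.24, SE 0.11, edgeR adjusted p = 0.27; DESeq2 adjusted p = 0.194). Set against G6pdx in the same library, the log2 count ratio of Me1 was 3.19, 2.21 and 2.70 in CePPy 1, 2 and 3, all above the 1.70, 1.62 and 1.83 of vehicle 1, 2 and 3. The difference of means in that ratio was 0.98, and that of Me1 to Pgd was 0.98 too. Adipocyte markers, from a cell type rich in malic enzyme, summed to 1.10 to 8.23 CPM in CePPy and 0.683 to 2.48 CPM in vehicle, with Lep at 0 in every library and 2 of the 6 markers above the filter. The sum was 1.10, 4.71 and 8.23 CPM in CePPy 1, 2 and 3, and its part in the Me1 values was not tested.

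Nnt encodes the transhydrogenase of the inner mitochondrial membrane, which uses the proton gradient to make NADPH from NADH. The C57BL/6J substrain is known to carry a deletion within this gene that removes functional protein. The labels give C57BL/6 without a substrain, and counts per gene do not show which exons were read. The annotation holds 2 overlapping Nnt models on the minus strand of chromosome 13, ENSMUSG00000116207 (119335528 to 119408952) and ENSMUSG00000025453 (119335448 to 119408997). All 3339 exonic bases of the first model lie within exons of the other model, and 15 of its 17 exons have the same boundaries there.

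The row of ENSMUSG00000116207 held 40.6, 57.5 and 66.2 CPM in CePPy 1, 2 and 3, against 18.4, 54.3 and 22.6 CPM in vehicle 1, 2 and 3. The row of ENSMUSG00000025453 held 50.1, 3.94 and 7.33 CPM in CePPy 1, 2 and 3, against 44.9, 5.59 and 43.7 CPM in vehicle 1, 2 and 3. Within each group the library with the most reads in the second row had the fewest in the first, and the first row took 44.8%, 93.6% and 90.0% of Nnt reads in CePPy 1, 2 and 3 and 29.1%, 90.7% and 34.1% in vehicle 1, 2 and 3. No source used here gives how reads were split between the models, so neither row is a reliable level. Fitted singly they gave log2 fold changes of 0.79 (SE 0.39, edgeR adjusted p = 0.312) and -0.62 (SE 0.98, edgeR adjusted p = 0.766).

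Summed over both rows, a step chosen after the data were seen, Nnt measured 90.7, 61.4 and 73.5 CPM in CePPy 1, 2 and 3, against 63.3, 59.9 and 66.3 CPM in vehicle 1, 2 and 3. The sum was highest in CePPy 1, and CePPy 2 lay inside the vehicle range. The summed log2 fold change was 0.25 (SE 0.14, edgeR adjusted p = 0.352), and with 1 Nnt row in place of 2 the median of the set became -0.23.

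**Figure D3:**
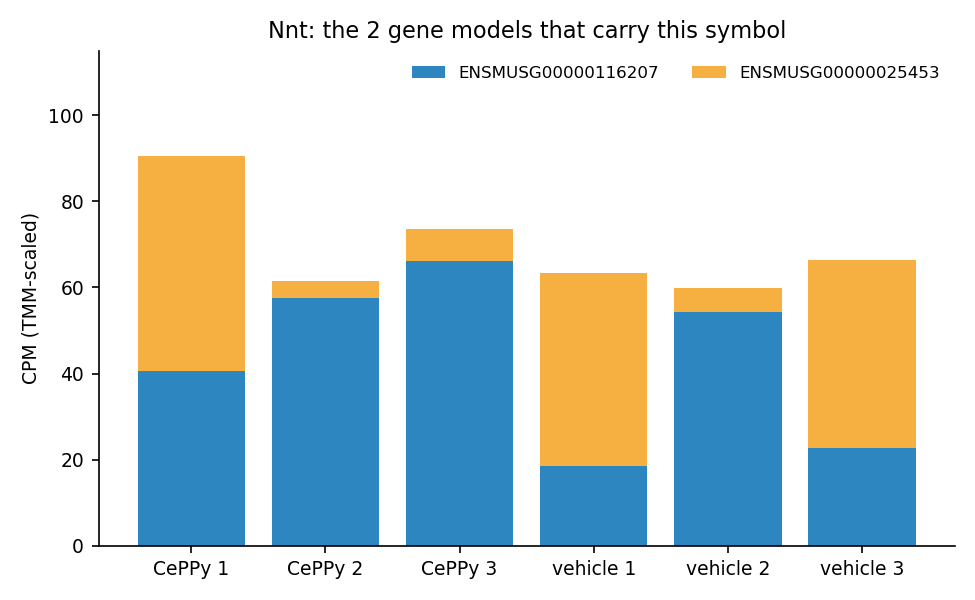
Stacked level of the 2 Nnt gene models in CPM (y axis) for each library. The share of ENSMUSG00000116207 changes between 29.1% and 93.6% among libraries of both groups, while the bar heights stay between 59.9 and 90.7 CPM.

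Per kilobase of exon, levels can be set side by side between genes. In CePPy, Taldo1 was highest at 133 ± 10.8 CPM per kb, then Me1 at 111 ± 11.7, H6pd at 78.2 ± 14.9, Tkt at 49.0 ± 5.51, Pgd at 38.5 ± 7.15 and G6pdx at 21.7 ± 4.96 CPM per kb (SD, n = 3). In vehicle, Taldo1 stood at 195 ± 0.677 CPM per kb, H6pd at 97.3 ± 5.05, Me1 at 93.97 ± 6.06, Tkt at 64.6 ± 1.32, Pgd at 63.9 ± 2.08 and G6pdx at 35.7 ± 0.674 CPM per kb (SD, n = 3). H6pd and Me1, Tkt and Pgd, and Pgls and Rpe overlapped in their vehicle ranges, so none of these pairs was ordered there. In CePPy, Tkt (42.9 to 53.6) and Pgd (31.8 to 46.0) overlapped as well, and summed Nnt (8.73 to 12.9) overlapped Pgls and Rpe. Pgls, Rpe, summed Nnt and Rpia followed at 11.9, 12.5, 10.7 and 2.58 CPM per kb in CePPy and 13.1, 12.7, 8.97 and 2.84 CPM per kb in vehicle. In vehicle, Taldo1 stayed first and Rpia last when the longest transcript stood in for the union of exons. The order of H6pd, Me1, Tkt and Pgd changed there, and summed Nnt passed Rpe.

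CePPy libraries were spread in the order 1, 3, 2 for G6pdx, Pgd, Tkt, Taldo1 and H6pd, low to high. The sum of the proximal tubule markers ran in the reverse order, though the marker Slc13a3 was highest in CePPy 3. In each marker list of this paragraph, edgeR called 0 genes at an adjusted p under 0.05. The 14 proximal tubule markers, all with higher values in CePPy, summed to 25142, 13054 and 17000 CPM in CePPy 1, 2 and 3 and to between 12424 and 13713 CPM in vehicle. The 8 markers of tubular injury, 7 of them with lower values in CePPy, summed to between 17355 and 33520 CPM in CePPy and between 30805 and 31645 CPM in vehicle. The most abundant gene was Kap in the first sum and Spp1 in the second, each the largest part of its sum. Without Kap the proximal tubule markers summed to 11209, 4764 and 7349 CPM in CePPy 1, 2 and 3 and to between 4088 and 4334 CPM in vehicle. Without Spp1 the injury markers summed to 2878, 6699 and 4776 CPM in CePPy 1, 2 and 3 and to between 7491 and 7731 CPM in vehicle. Each CePPy library thus lay outside the vehicle range in both reduced sums, a calculation chosen after the data were seen. Sums were also above the vehicle range in each CePPy library for thick ascending limb (3502 to 6452 CPM in CePPy, 2695 to 3008 CPM in vehicle), distal convoluted and connecting tubule (636 to 968 CPM in CePPy, 533 to 630 CPM in vehicle) and collecting duct (405 to 526 CPM in CePPy, 304 to 338 CPM in vehicle). The part of these tubule and injury markers in the member values was not tested. Neutrophil markers, of which 7 of 8 were tested and all 7 had lower values, summed to between 12.3 and 26.4 CPM in CePPy and between 40.6 and 58.0 CPM in vehicle, and their part in the member values was not tested. Macrophage and monocyte markers summed to between 159 and 174 CPM in CePPy and between 162 and 192 CPM in vehicle.

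The genes around the pathway gave a mixed picture, and edgeR called 0 of them over all genes in each of the 6 further lists. DESeq2 called 5 higher and 10 lower in all, where it called 3.64% of all genes with an adjusted p higher and 3.43% lower. The counts per list at an unadjusted edgeR p under 0.05 stand against 9.65% of all genes tested higher and 9.37% lower. Of 13 further NADPH suppliers, 12 were tested, 9 with higher and 3 with lower values, at a median log2 fold change of 0.07. At an unadjusted edgeR p under 0.05, 3 were higher and 2 lower. Aldh1l1, the cytosolic folate enzyme that yields NADPH as it oxidises formyl groups, measured 377, 262 and 306 CPM in CePPy 1, 2 and 3, against 192, 206 and 200.3 CPM in vehicle 1, 2 and 3. These groups were apart (log2 fold change 0.66, SE 0.13, edgeR adjusted p = 0.102). Me3, the mitochondrial malic enzyme that uses NADP, averaged 29.6 ± 4.32 CPM in CePPy and 20.04 ± 2.86 CPM in vehicle (SD, n = 3 each), and the log2 fold change was 0.56 (SE 0.14, edgeR adjusted p = 0.124). Nadk, the kinase that makes NADP from NAD, measured 214, 223 and 218 CPM in CePPy 1, 2 and 3, against 271, 257 and 262 CPM in vehicle 1, 2 and 3. Its groups were apart as well (log2 fold change -0.27, SE 0.07, edgeR adjusted p = 0.137). Without CePPy 2, edgeR called Aldh1l1 (adjusted p = 0.0172) and Me3 (adjusted p = 0.0487) higher and 0 lower. In that fit 2.98% of all genes were called higher and 2.19% lower. DESeq2 called the same 2 genes higher and 2 of the list lower, among them Nadk (adjusted p = 0.0109).

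Of 14 neighbours in pentose and ribose phosphate handling, 12 were tested, 5 with higher and 7 with lower values (median log2 fold change -0.06). At an unadjusted edgeR p under 0.05, 3 were higher and 1 lower. Dera, which splits deoxyribose 5-phosphate, averaged 54.1 ± 1.21 CPM in CePPy and 64.6 ± 4.08 CPM in vehicle (log2 fold change -0.26, edgeR adjusted p = 0.15). Shpk, the sedoheptulose kinase that feeds the non-oxidative branch, averaged 14.7 ± 2.42 CPM in CePPy and 10.4 ± 0.947 CPM in vehicle (0.50, edgeR adjusted p = 0.154). Dcxr, the xylulose reductase of the pentose and glucuronate pathway, measured 80.2, 35.3 and 58.2 CPM in CePPy 1, 2 and 3, against 35.0, 35.0 and 39.5 CPM in vehicle 1, 2 and 3. CePPy 2 was level with vehicle for Dcxr, which did not pass (log2 fold change 0.67, SE 0.25, edgeR adjusted p = 0.217). The fold change of Dcxr was 0.36 without CePPy 1, and without CePPy 2 it was 0.92 and passed (edgeR adjusted p = 0.0212).

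Among enzymes that spend NADPH in reduction, lower values were more frequent. Of 22 reductases, all tested, 14 had lower and 8 higher values (median log2 fold change -0.18), 10 lower and 2 higher at an unadjusted edgeR p under 0.05, where 9.37% of all genes were lower and 9.65% higher. DESeq2 called 8 of them, all lower, where it called 3.43% of all genes lower and 3.64% higher. Without CePPy 2, edgeR called 4 of them lower and 2 higher, where 2.19% of all genes were called lower and 2.98% higher. The lower ones included Gsr (adjusted p = 0.0172), Blvra (adjusted p = 0.0127) and Txnrd1 (adjusted p = 0.0342). Gsr, glutathione reductase, measured 187, 211 and 193 CPM in CePPy 1, 2 and 3, against 330, 286 and 320 CPM in vehicle 1, 2 and 3, and its CePPy libraries lay closer together than those of G6pdx. The log2 fold change for Gsr was -0.66 (SE 0.09, edgeR adjusted p = 0.0739; DESeq2 adjusted p = 7.45e-08). Blvra, biliverdin reductase A, averaged 67.8 ± 6.69 CPM in CePPy and 106 ± 4.33 CPM in vehicle (SD, n = 3 each), with a log2 fold change of -0.64 (edgeR adjusted p = 0.0739). Txnrd1, cytosolic thioredoxin reductase, averaged 274 ± 39.4 CPM in CePPy and 439 ± 31.4 CPM in vehicle (SD, n = 3 each), with a log2 fold change of -0.68 (edgeR adjusted p = 0.0884).

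Among enzymes that spend NADPH in lipid synthesis, higher values were more frequent, with 11 of 13 at higher values (median log2 fold change 0.22), 5 higher and 0 lower at an unadjusted edgeR p under 0.05. Cyp51, of sterol synthesis, measured 153, 100.4 and 80.0 CPM in CePPy 1, 2 and 3, against 49.1, 81.0 and 61.7 CPM in vehicle 1, 2 and 3. Its groups overlapped and CePPy 1 was highest, with a log2 fold change of 0.80 (edgeR adjusted p = 0.169), or 0.50 without CePPy 1. Far1, a reductase that makes fatty alcohols for ether lipids, averaged 183 ± 15.4 CPM in CePPy and 152 ± 1.92 CPM in vehicle (SD, n = 3 each), with a log2 fold change of 0.27 (edgeR adjusted p = 0.163).

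Of 13 genes of NADPH oxidases and nitric oxide synthases, 10 were tested, 4 with higher and 6 with lower values (median log2 fold change -0.05), 0 higher and 1 lower at an unadjusted edgeR p under 0.05. Nox4, the oxidase abundant in kidney tubules, averaged 265 ± 59.6 CPM in CePPy and 213 ± 33.1 CPM in vehicle (log2 fold change 0.31, edgeR adjusted p = 0.363), and its log2 fold change was 0.12 without CePPy 1. Nos2, the inducible nitric oxide synthase, averaged 1.70 ± 0.56 CPM in CePPy and 0.827 ± 0.471 CPM in vehicle (log2 fold change 1.03, edgeR adjusted p = 0.288), or 1.58 on the log2 scale without vehicle 2.

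Transcripts of 15 regulators had a median log2 fold change of -0.02, with 6 higher and 9 lower values, 2 higher and 0 lower at an unadjusted edgeR p under 0.05. Ppargc1a, the coactivator of mitochondrial biogenesis, measured 42.6, 32.4 and 44.3 CPM in CePPy 1, 2 and 3, against 23.2, 27.7 and 30.3 CPM in vehicle 1, 2 and 3. Its groups were apart (log2 fold change 0.55, SE 0.15, edgeR adjusted p = 0.131; DESeq2 called it higher, as did edgeR without CePPy 2 at an adjusted p of 0.0332). Bach1, a repressor that competes with NRF2 at response elements, averaged 31.9 ± 2.23 CPM in CePPy and 26.6 ± 2.50 CPM in vehicle (0.26, edgeR adjusted p = 0.226). Hif1a, the oxygen-regulated transcription factor, averaged 147 ± 19.1 CPM in CePPy and 125 ± 7.29 CPM in vehicle (0.23, edgeR adjusted p = 0.296).

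**Figure D4:**
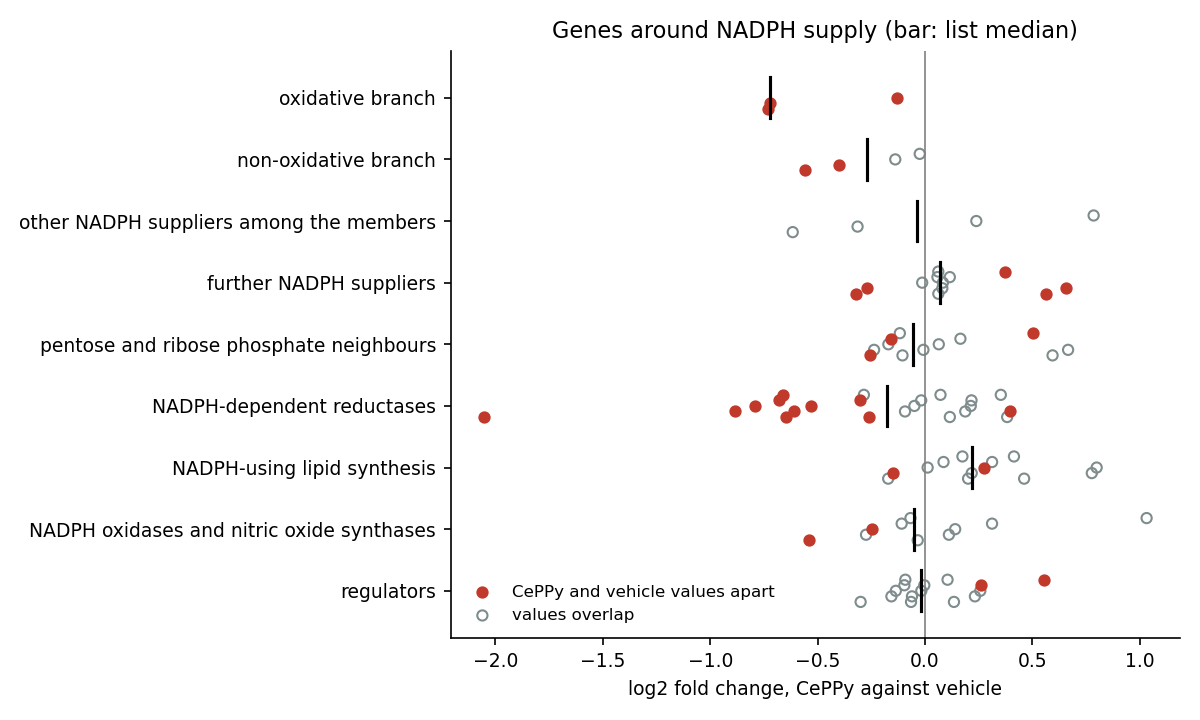
Log2 fold change of CePPy against vehicle by edgeR (x axis) for each tested gene of the 9 lists (rows), with filled points where the values of the groups were apart and a black bar at the list median. The 22 reductases reach to -2.05 and have 10 filled points below 0 and 1 above. Over all genes tested, 14.0% were apart and lower and 12.3% apart and higher. The lipid synthesis genes have a median of 0.22.

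The genes whose pattern over the 6 libraries was nearest to that of G6pdx were sought among 9468 annotated genes with at least 10 CPM on average. Likeness was the Euclidean distance between log2 CPM centred on each gene's mean, where G6pdx itself spanned 1.13 log2 units. Nearest were Mrpl33, a mitochondrial ribosomal protein gene, at a distance of 0.106, Bag2, an HSP70 co-chaperone gene, at 0.124, and Jpt1 at 0.143. For Taldo1, which spanned 0.69 log2 units, the nearest were Lgals1, the galectin-1 gene, at 0.0987, Bin1, a membrane-bending protein gene, at 0.115, and Gstp1, a glutathione transferase gene, at 0.118. For summed Nnt, which spanned 0.60 log2 units, they were Ndufv2, a complex I subunit gene, at 0.0585, Ankrd13c at 0.0641 and Dmac2 at 0.071. Each of the 6 genes named for G6pdx and Taldo1 was lower in every CePPy library than in any vehicle library, a pattern that the choice by distance fixes.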

How the data were processed

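RNA was extracted with TRIzol and 2 µg of total RNA went into each library (Hieff NGS mRNA kit, Yeasen), per the labels' protocols. The authors deposited whole-number read counts per gene, not normalized, in 1 table. TopHat2, Cufflinks and DESeq, each without a version, and the build GRCm38 appear in the submitters' processing notes. The counter, its use of strand, its treatment of overlapping genes and the annotation stay not given in the sources used here. Of 22036 Ensembl identifiers, 22022 were in GENCODE M21 (GRCm38), which gave coordinates and exon lengths.

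Counts were filtered with filterByExpr (15416 genes kept), scaled by TMM and tested with edgeR 4.0.16 in R 4.3.3, treatment being the only term (4 residual degrees of freedom) and p-values adjusted by Benjamini-Hochberg over all genes at a threshold of 0.05. Errors are SDs between libraries, or SEs of fitted log2 fold changes. Alternatives used DESeq2 1.42.0, limma 3.58.1, other scaling or filtering, a replicate block and leaving out each library. The test was checked on simulated counts drawn with the same spread in both groups. That check does not cover the wider spread among the CePPy libraries. Replicate pairs differed by more than sampling noise (chi-square per degree of freedom 19.7 to 106). An exact permutation test of 3 against 3 cannot give a two-sided p below 0.1.

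The members and lists were chosen with earlier results of these data known. All members were named, as were the 3 genes of lowest p with at least 1 CPM in each further list and the 3 nearest patterns to G6pdx, Taldo1 and Nnt. Of the genes this rule chose, 2 are not reported here. Genes that share exons with a member were named after the annotation was read.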

Additional observations from a re-analysis of the deposited data

How the results depend on the processing

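Of the values of single named genes under the alternatives run, 315 kept their direction and side of the threshold and 33 kept their direction and passed the threshold where the reported one did not. DESeq2 gave no adjusted p for Nnt ENSMUSG00000025453, which is not counted. Over all genes edgeR called 1 gene, against 63 without the filter on low counts, 1026 by DESeq2, 352 by limma-voom with sample weights and 0 with the replicate block, and between 0 and 811 with a library left out (811 without CePPy 2). Of the members' rows, 0 were called, against 4 by DESeq2 and 3 by limma-voom with sample weights, and between 0 and 4 with a library left out (4 without CePPy 2). Of the further lists, 0 genes were called, against 2 without the filter, 15 by DESeq2, 4 by limma-voom with sample weights, and between 0 and 11 with a library left out (11 without CePPy 2). The median of the members was -0.23 with the Nnt rows summed and between -0.35 and -0.17 with a library left out (-0.17 without CePPy 1, -0.19 without CePPy 2). Without CePPy 2 the middle row of the members changed from H6pd to Rpia, as Nnt ENSMUSG00000025453 rose to -0.12. What caused the shifts in single values and in the counts of genes called was not tested. Labels do not say that replicate numbers pair samples, and deviations from the group means correlated at -0.15, 0.098 and -0.021 for numbers 1, 2 and 3, so the block is not a pairing, and no CePPy library correlated best with its own number except CePPy 2.

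Per kilobase of the longest transcript, vehicle levels were 311 CPM for Taldo1, 147 for Tkt, 113 for Pgd, 110 for Me1, 107 for H6pd, 41.5 for G6pdx, 18.3 for Pgls, 18.2 for summed Nnt, 14.6 for Rpe and 4.18 for Rpia, each larger because that length is shorter than the union of exons. The looser motif TGANNNNGC stood in 5 of 11 member windows and in 41.34% of all windows. With 1 count worth 0.0266 to 0.0333 CPM, every member stood well above the level of single counts.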
